A study of Drosophila melanogaster and Drosophila simulans and Drosophila sechellia with 48 samples.

Results

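Nca and 5-HT1A are a pair of neural signalling genes whose transcript levels were followed through development in males of 3 Drosophila species and of an interspecific hybrid. The members were the array elements whose symbol in the probe annotation is Nca or 5-HT1A, which gave 1 element with 2 spots for each gene. They are 2 of the 2535 elements with a value on all 48 arrays, and 5251 elements had a value in at least 1 group. Nca lies on chromosome arm 3L and 5-HT1A on 2R. Both were chosen by earlier results on their measured levels in these arrays, so levels and differences are given as a description, without a test.

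Nca encodes neurocalcin, a member of the neuronal calcium sensor family. These small proteins bind calcium through EF hands, and many carry a myristoyl group that is exposed on calcium binding and lets them attach to membranes. In D. melanogaster, neurocalcin is present in the nervous system and has been linked to the control of sleep and night-time activity. 5-HT1A encodes a receptor for serotonin that couples through an inhibitory G protein to adenylyl cyclase and so lowers cyclic AMP. In the fly it is known for roles in sleep, feeding, aggression and memory. During metamorphosis the larval nervous system is rebuilt, and the adult visual system and many adult neurons mature in the second part of pupal life.

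RNA was taken from whole males in pools of 25 and amplified in 2 rounds. The species were D. sechellia from Cousin Island, D. melanogaster of stock 14021-0231.00 and D. simulans of stock 14021-0251.2, and the hybrids were sterile F1 males with a D. simulans mother and a D. sechellia father. Larvae were sampled at 96 h after larval emergence and adults at 1.5 h after eclosion. Early pupae were taken at 4 h and late pupae at 72 h after puparium formation. For the early pupae the methods state 2 h and the labels 4 h. The supplementary methods describe animals that pupated within a 2 h window and were then held for 2 h more. Each of the 16 groups had 3 arrays, which in the pure species repeat 1 RNA pool and in the hybrids come from 3 pools. Every value is a log2 ratio of the sample to a common reference, an unamplified mixture of D. melanogaster males of the 4 stages, on arrays of D. melanogaster cDNA. A value of 0 is thus the level of the reference, and values of different elements cannot be set against each other as amounts. The spread within a pure species is technical. Since whole animals were used, fewer cells of a type and less RNA per cell cannot be told apart.

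The arrays of 7 groups included a pair that was near-identical, where the gap between duplicate spots correlated across the pair with r = 0.62 to 0.97, against at most 0.05 in the 41 other pairs. Of these pairs, 6 were technical arrays of a species and the seventh, with the correlation of 0.62, joined the adult hybrid replicates 1 and 2, which the methods describe as separate pools. Each such pair was averaged and counted as 1 sample, so n is 2 in those groups and 3 elsewhere. Array medians lay between -0.07 and 0.09 over the deposited spots, and between -0.09 and 0.15 over the 2535 elements on all arrays. The median difference over these elements reached -0.15 for D. melanogaster minus D. sechellia in late pupae. It reached 0.15 for hybrids minus D. melanogaster in adults. Centring each array on its median moved the differences of Nca and 5-HT1A by up to 0.09. The first array of the larval hybrids stood apart in spread, with an SD of the difference over elements of 0.71 and 0.68 from the other 2 pools, against 0.38 between those and at most 0.58 in any other group. The stage labels could be set against Eig71Ed, a gene induced by the prepupal ecdysone pulse, whose mean was 0.43 to 1.68 in the 4 early pupal groups and -3.16 or lower in the other 12. Of 17 neuron markers, only nrv3, a neuronal subunit of the sodium pump, was measured on all arrays. Defining markers such as elav and brp were not analysed here, so nervous tissue as such was checked through nrv3 and 4 of 9 glia markers only.

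Nca was above the reference on 47 of 48 arrays, and 5-HT1A on 46. Both genes had means above 0 in all 16 groups, and so at every stage of D. melanogaster, although the reference mixes these stages. Samples were amplified and the reference was not, and the part of this in the height above 0 was not tested. Across the 16 groups the mean of Nca ran from 0.10 ± 0.63 (SD, n = 2) in adult D. simulans to 1.88 ± 0.05 (SD, n = 3) in late pupal hybrids, a range of 1.77 that is wider than that of 57.9% of elements. The means of 5-HT1A ran from 0.03 ± 0.21 (SD, n = 2) in early pupal D. melanogaster to 1.51 ± 0.01 (SD, n = 2) in late pupal D. sechellia, a range of 1.48 that is wider than that of 39.4% of elements. With near-identical arrays merged, both genes had their highest mean in the late pupa in each species and in the hybrids. For Nca in D. simulans this rested on merging and on the second late pupal array, since the plain mean of 3 arrays was 1.30 in late and 1.36 in early pupae, and 1.03 against 1.44 without replicate 2. For Nca in D. melanogaster the means without replicate 3 were 0.87 in late and 0.94 in early pupae. For 5-HT1A in D. melanogaster, larvae had the higher mean without replicate 2, with 0.44 against 0.37 in late pupae. In the hybrids the adult mean of 5-HT1A was the higher one without replicate 1 (0.74 against 0.63) and without replicate 3 (1.04 against 1.00). In D. sechellia both genes, in D. simulans 5-HT1A and in the hybrids Nca kept their maximum in the late pupa without replicate 1, 2 or 3. The late pupa was the stage of the highest merged mean for 17.6% of elements in D. melanogaster, 14.6% in D. sechellia, 21.5% in D. simulans, and for 22% in the hybrids. The means of the 2 genes over the 16 groups correlated with r = 0.32 (rho = 0.41), where the points share arrays, reference and stage.

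**Figure D1:**
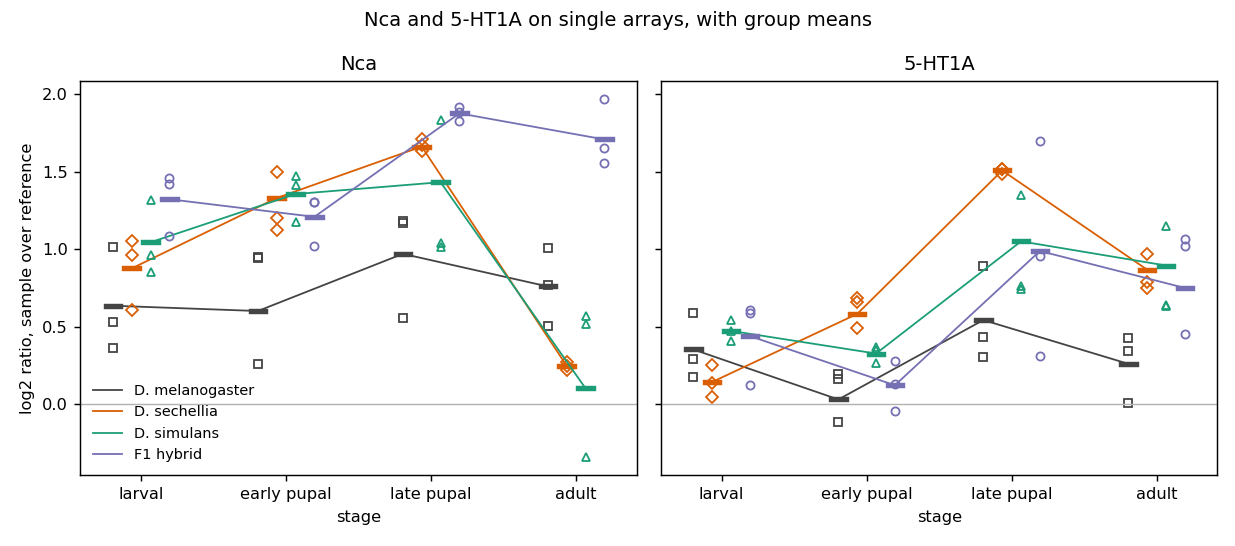
Log2 ratio of sample to reference (y axis) of Nca and 5-HT1A at the 4 stages (x axis). Open symbols are single arrays, thick bars and lines are group means with near-identical arrays counted once, and the hybrids and 3 species are drawn in different colours. Adult hybrids have Nca values of 1.56 to 1.97, above all arrays of the adult species, whereas those of 5-HT1A run from 0.46 to 1.07 and overlap both parents.

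In larvae, Nca was 0.36, 1.01 and 0.53 on the 3 arrays of D. melanogaster, 1.06, 0.96 and 0.61 in D. sechellia, and 1.32, 0.85 and 0.96 in D. simulans. The 3 larval hybrid pools gave 1.46, 1.42 and 1.09. The species overlapped each other, while the hybrids lay above all arrays of D. melanogaster and D. sechellia and overlapped D. simulans. The hybrid mean of 1.32 ± 0.20 (SD, n = 3) exceeded that of D. sechellia by 0.45 and that of D. melanogaster by 0.69. Arrays lay apart in that direction for 16.5% and 12% of elements.

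In early pupae, Nca was 0.94, 0.95 and 0.26 in D. melanogaster, 1.12, 1.50 and 1.20 in D. sechellia, and 1.47, 1.18 and 1.42 in D. simulans. Hybrid pools gave 1.30, 1.02 and 1.30. D. melanogaster was below each of the other 3 groups, which overlapped among themselves. Its mean was lower by 0.73 than that of D. sechellia, by 0.75 than that of D. simulans and by 0.61 than that of the hybrids, and arrays lay apart in that direction for 36.6%, 24.5% and 24.6% of elements. From larva to early pupa the mean of D. sechellia was higher by 0.45 with no overlap (background 38.1%), and the arrays of the 2 stages overlapped in the hybrids and the other species.

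In late pupae, Nca was 1.18, 0.55 and 1.17 in D. melanogaster, 1.67, 1.71 and 1.63 in D. sechellia, and 1.04, 1.83 and 1.02 in D. simulans. The hybrid pools were tightly grouped at 1.82, 1.92 and 1.89. They lay above all arrays of D. melanogaster and D. sechellia, and all but the second array of D. simulans. The hybrid mean exceeded that of D. sechellia by 0.21 (background 9.03%) and that of D. melanogaster by 0.91 (background 19.2%), and D. melanogaster was below D. sechellia by 0.69 (background 35.1%). From early to late pupa the mean was higher by 0.67 in the hybrids (background 24.9%) and by 0.33 in D. sechellia (background 34.6%), both without overlap, and by 0.37 in D. melanogaster with overlap, where leaving out replicate 3 turned the sign. In D. simulans the stages overlapped and the direction was not settled, with a change of 0.08 in the merged mean, -0.06 in the plain mean of 3 arrays and -0.42 without replicate 2.

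The largest differences of Nca lay in the newly eclosed adults. Nca was 0.22, 0.25 and 0.27 in adult D. sechellia and 0.52, -0.34 and 0.57 in adult D. simulans. Adult D. melanogaster gave 1.01, 0.50 and 0.77. The adult hybrids gave 1.97, 1.56 and 1.65. All 3 hybrid arrays lay above all 9 arrays of the species, a pattern found for 4.3% of elements, and 8.88% lay above both parents. The parents overlapped each other, and D. melanogaster lay above D. sechellia by 0.51 (background 26.4%) and overlapped D. simulans.

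The adult hybrid mean of 1.71 ± 0.08 (SD, n = 2) exceeded that of D. sechellia, 0.25 ± 0.002 (SD, n = 2), by 1.46 or 2.75-fold, and 6 of 2535 elements had a larger positive difference. It exceeded that of D. simulans, 0.10 ± 0.63 (SD, n = 2), by 1.61 or 3.04-fold, with 5 elements higher. These comparisons share the hybrid arrays. The hybrid SD is small because it was taken after merging, and the 2 merged arrays read 1.97 and 1.56. The plain mean of the 3 hybrid arrays was 1.73. In adult D. sechellia the second array had spots of -0.07 and 0.57, so the SD of 0.002 does not measure the precision of its arrays. Against the mean of the 2 parents the hybrids were higher by 1.53 or 2.89-fold, and 3 elements had a larger positive difference. The same difference was 0.36 in larvae, -0.13 in early pupae and 0.33 in late pupae, with 410, 1539 and 325 elements having a larger value.

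**Figure D2:**
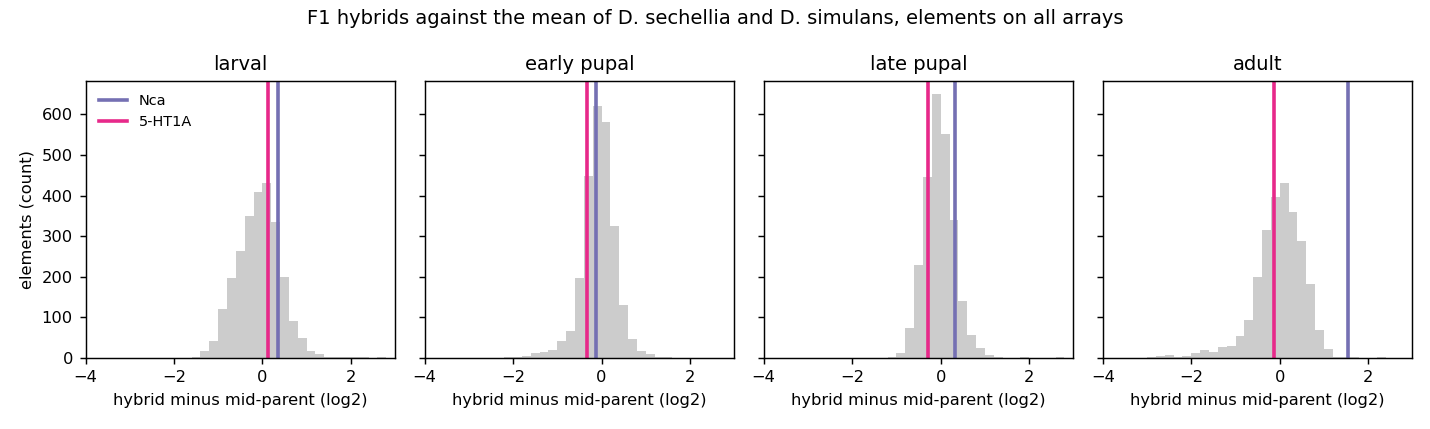
Histograms of the hybrid mean minus the mean of the 2 parents on the log2 scale (x axis, bins of 0.2) over the 2535 elements (y axis, count) at each stage, with lines at Nca and 5-HT1A. Nca lies at 1.53 in adults, at the right end of the distribution, and within the body of it at the other stages. 5-HT1A lies between -0.33 and 0.13 at all 4 stages.

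From late pupa to adult, the mean of Nca changed by -1.41 in D. sechellia, 2.67-fold lower in adults. In D. simulans it changed by -1.33, 2.51-fold lower, and in both there was no overlap between the stages (backgrounds 40.3% and 26.7%). In D. sechellia 92.7% and in D. simulans 93.6% of elements had a smaller change in either direction. The hybrid means of the 2 stages differed by -0.17 and those of D. melanogaster by -0.21, and in both the arrays overlapped. The difference between these changes was not tested, since it was known when Nca was chosen.

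The second array of adult D. simulans set much of that group's mean. Its spots read -0.90 and 0.22, a gap of 1.12 that was the widest between the spots of Nca on any array. Without it the mean of adult D. simulans was 0.54 in place of 0.10. Leaving out replicate 2 in every group, the change from late pupa to adult in D. simulans was -0.49 in place of -1.33 (-1.05 in the plain mean of 3 arrays), and the excess of adult hybrids over D. simulans was 1.27 in place of 1.61. The excess over D. sechellia does not use this array.

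In order of the means, Nca was highest in late pupal hybrids, followed by adult hybrids and late pupal D. sechellia. It was lowest in adult D. simulans, adult D. sechellia and early pupal D. melanogaster. All 15 neighbours in this order overlapped with the next. D. melanogaster held 4 of the 7 lowest means, with a range of 0.37 over its stages, against 1.41 in D. sechellia, 1.33 in D. simulans and 0.67 among the hybrid stages. The cDNA on the arrays is that of D. melanogaster, and the effect of sequence differences on these elements was not tested.

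In the Release 6 gene table the Nca locus overlaps that of CG7646, a gene with EF hands like Nca. CG7646 has an element of its own on the arrays, and its group means followed those of Nca with r = 0.58 (rho = 0.67, 16 groups), with 42 elements more alike. In adults its mean was 1.81 in the hybrids and 0.87 in D. sechellia. D. simulans had 1.41 and D. melanogaster 1.37. The hybrids were higher than D. sechellia by 0.95 and than D. simulans by 0.41, both without overlap (backgrounds 30.3% and 18.4%). They overlapped D. melanogaster. Adult hybrids lay above both parents without overlap for 8.88% of elements. In early pupae the CG7646 mean of the hybrids was 0.48 below that of D. sechellia, without overlap (background 20%). How far the 2 elements share signal through the overlapping loci or related sequence was not tested.

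Markers of other tissues stood beside the adult excess of Nca as follows. For scale, adult hybrids lay below D. sechellia without overlap for 27.9% of elements and below D. simulans for 20.6%. They lay above D. simulans without overlap for 18.4%. The neuron marker nrv3 was 1.94 in adult hybrids, against 1.72 in D. sechellia and 1.88 in D. simulans. Its hybrid arrays overlapped both parents. Of the 4 glia markers, Gs2, loco and moody overlapped both parents and Gli was below D. simulans by 0.83. The testis tubulin gene betaTub85D was -1.22 in adult hybrids, which was 1.02 below D. sechellia and 1.82 below D. simulans, without overlap. It was the only one of 8 testis markers on all arrays. The photoreceptor arrestin gene Arr1 was lower in the hybrids by 0.84 and 1.03, also without overlap. Of the muscle markers, the flight muscle actin gene Act88F was 0.79 below D. sechellia without overlap and overlapped D. simulans, while the myosin light chain gene Mlc1 was 0.65 above D. simulans without overlap and overlapped D. sechellia. The part of these tissues in the level of Nca was not tested.

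5-HT1A had hybrids that overlapped at least 1 parent at each stage, adults included. In larvae it was 0.29, 0.18 and 0.59 in D. melanogaster, 0.25, 0.04 and 0.14 in D. sechellia, and 0.54, 0.40 and 0.47 in D. simulans. Hybrid pools gave 0.12, 0.59 and 0.61. D. sechellia was below D. simulans on all arrays, by 0.33 in the mean (background 16.6%). The larval hybrids overlapped all 3 species, and this rested on the first hybrid array, the one that stood apart in spread. The other 2 lay above all larval arrays of the species, though barely above D. melanogaster (0.587 against 0.585). Without the first, the hybrid difference from the parental mean was 0.29 in place of 0.13.

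In early pupae 5-HT1A was 0.19, 0.16 and -0.12 in D. melanogaster, 0.66, 0.49 and 0.68 in D. sechellia, and 0.35, 0.26 and 0.37 in D. simulans. Hybrid pools gave 0.13, 0.28 and -0.04. Here D. sechellia was the highest, above D. simulans by 0.26 (background 25.6%) and above the hybrids by 0.46 (background 20%), without overlap. D. melanogaster was below D. sechellia by 0.55 and below D. simulans by 0.30 (backgrounds 36.6% and 24.5%), and the hybrids overlapped both D. simulans and D. melanogaster. From larva to early pupa 5-HT1A was higher by 0.44 in D. sechellia (background 38.1%) and lower in D. simulans, where the mean changed by -0.15 (background 20.9%), both without overlap.

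In late pupae 5-HT1A was 0.43, 0.89 and 0.30 in D. melanogaster, 1.48, 1.51 and 1.51 in D. sechellia, and 0.76, 1.35 and 0.74 in D. simulans. The hybrid pools were spread widely, at 1.70, 0.31 and 0.96. D. sechellia lay above all arrays of D. melanogaster and D. simulans, by 0.96 and 0.46 in the mean (backgrounds 35.1% and 30.9%). The hybrids overlapped all 3 species, and their mean was 0.99 ± 0.70 (SD, n = 3). The second hybrid pool had spots of 0.82 and -0.21, the widest gap of 5-HT1A on any array, and without it the mean was 1.33.

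5-HT1A was higher in late than in early pupae in all 4 groups, with no overlap between the stages in any of them. The mean was higher by 0.51 in D. melanogaster, by 0.93 in D. sechellia, by 0.72 in D. simulans and by 0.87 among hybrids. Arrays lay apart in that direction for 24.6%, 34.6%, 24.3% and 24.9% of elements. The share of elements that did so in all 4 groups at once is not given here. Leaving out replicate 2 in every group gave 0.33, 0.83, 0.39 and 1.28, respectively. Over the same interval nrv3 was higher by 3.73, 3.21, 2.34 and 2.80, also without overlap in any group. The muscle markers were higher too, without overlap, Mlc1 by 2.27, 3.70, 2.99 and 3.55 and Act88F by 0.75, 1.38, 1.35 and 1.29. The photoreceptor gene Arr1 was lower without overlap in D. melanogaster, D. sechellia and the hybrids. Its mean changed by -0.75, -0.66 and -0.55 (backgrounds 31.2%, 38.7% and 29.3%). In D. simulans it changed by 0.02 with overlap. The testis gene betaTub85D was higher by 0.56 in D. sechellia and 0.72 in D. simulans, without overlap. Its arrays overlapped in D. melanogaster and the hybrids. The glia marker loco was lower in each group. In D. melanogaster and D. simulans it was lower by 0.56 and 0.32 without overlap (backgrounds 31.2% and 31.7%). In D. sechellia and the hybrids the arrays overlapped. The other 3 glia markers went different ways in different groups. The part of these tissues in the late pupal level of 5-HT1A was not tested.

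In adults 5-HT1A was 0.43, 0.01 and 0.34 in D. melanogaster, 0.75, 0.97 and 0.78 in D. sechellia, and 0.64, 1.15 and 0.64 in D. simulans. Hybrid pools gave 1.07, 1.02 and 0.46. D. melanogaster was below the other groups on all arrays, by 0.61 against D. sechellia, 0.63 against D. simulans and 0.49 against the hybrids (backgrounds 32.8%, 27.4% and 27.9%). The hybrids overlapped both parents, and their mean was 0.12 below that of D. sechellia and 0.14 below that of D. simulans. From late pupa to adult only D. sechellia moved without overlap, where the mean changed by -0.64 (background 40.3%).

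In order of the means, 5-HT1A was highest in late pupal D. sechellia, D. simulans and the hybrids, then in adult D. simulans, D. sechellia and hybrids. The first of these did not overlap the second, and each of the other 14 neighbouring pairs overlapped. The lowest means were those of early pupal D. melanogaster, early pupal hybrids and larval D. sechellia. The hybrid difference from the parental mean was 0.13, -0.33, -0.29 and -0.13 from larva to adult, against 0.36, -0.13, 0.33 and 1.53 for Nca.

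The 2 spots of each gene give the precision within an array. The median gap between spots was 0.20 for Nca and 0.15 for 5-HT1A, where the median over all elements was 0.16. The median SD within groups was 0.24 for Nca and 0.21 for 5-HT1A, and the adult D. simulans SD of Nca was 0.63. The number of arrays limits this precision, and spot intensities are not used here.

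**Figure D3:**
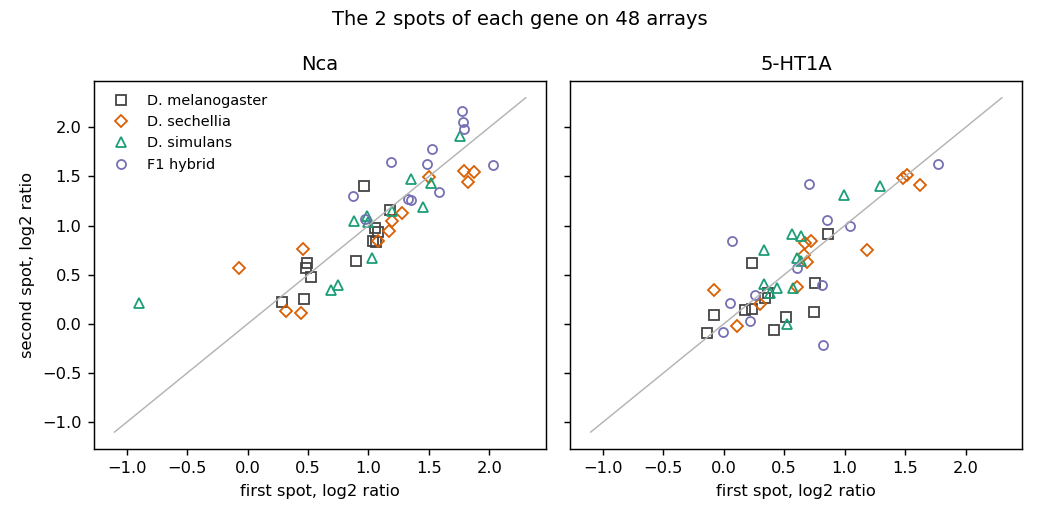
Log2 ratio of the second spot (y axis) against the first spot (x axis) of Nca and 5-HT1A on the 48 arrays, with the line of equality. Most points lie near the line, and the widest gaps are 1.12 for Nca, in adult D. simulans, and 1.03 for 5-HT1A, in late pupal hybrids.

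The named genes whose 16 group means were most like those of Nca were M6, a proteolipid family membrane protein, with r = 0.75 (rho = 0.66), Actbeta, an activin ligand, with r = 0.73, Swip-1, an EF-hand protein, with r = 0.72, schlank, a ceramide synthase, with r = 0.70, and CG17683 with r = 0.68. M6 and schlank, like Nca, had their highest mean in late pupal hybrids and their lowest in adult D. simulans. For 5-HT1A they were CG6144 with r = 0.88 (rho = 0.92), CG17321 with r = 0.86, cmpy with r = 0.84, CG14015 with r = 0.82, and the cuticle protein gene Cpr97Ea with r = 0.82. CG6144, CG17321 and cmpy shared the maximum of 5-HT1A in late pupal D. sechellia. These are likenesses over 16 groups that share arrays and reference, ranked over the 1605 named elements.

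The other genes of transmitter release and signalling show how far the changes of Nca and 5-HT1A were shared. Of a list of 169 symbols, 16 other genes with 17 elements were measured on all arrays. They were tested in 1 limma model over all 2535 elements and called where the p adjusted by Benjamini-Hochberg was below 0.05 and the fold change reached 1.5, that is 0.58 in log2. Within species, the mean of the 3 species was tested between consecutive stages. From larva to early pupa 5 elements rose and 2 fell (backgrounds 12.3% and 12.6%), from early to late pupa 2 rose and 3 fell (12% and 15.9%), and from late pupa to adult 3 rose and none fell (8.72% and 6.67%). In the hybrids 3 rose and 2 fell in the first interval (8.88% and 11%), 5 rose and 3 fell in the second (18.3% and 19.8%), and 2 rose and none fell in the last (7.46% and 5.29%).

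Among monoamine receptors, the family of 5-HT1A, DopEcR was the only other member on all arrays of 17 listed. DopEcR encodes a G protein coupled receptor for dopamine and ecdysteroids. It rose from early to late pupa by 1.72 ± 0.22 (SE) in the mean of the species (limma, adjusted p = 1.7e-05) and by 1.67 ± 0.22 in the hybrids (adjusted p = 1.9e-05), the interval in which 5-HT1A was higher by 0.51 to 0.93. In adults DopEcR was 1.58 in D. melanogaster and 1.51 in the hybrids, against 0.89 in D. sechellia and 0.38 in D. simulans. Unlike 5-HT1A, it was not lowest in adult D. melanogaster.

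Monoamine synthesis and storage was represented by speck and Vmat. Speck, an arylalkylamine N-acetyltransferase that acetylates dopamine and serotonin and also acts in cuticle pigmentation, rose by 2.24 ± 0.22 (SE) from larva to early pupa in the mean of the species (limma, adjusted p = 9.4e-07). It then fell by 1.64 and rose by 1.55, and the hybrids followed with 1.80, -1.89 and 1.63, all called. Vmat, the vesicular monoamine transporter, passed in none of the 6 tests, with an adjusted p of 0.088 or more.

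Among calcium sensors and calmodulin signalling, a list that takes in the family of Nca and the calcineurin and calmodulin pathways, 5 other genes were on all arrays of 22 listed. CanB, the regulatory subunit of calcineurin, rose from early to late pupa by 1.33 ± 0.27 (SE) in the species (limma, adjusted p = 0.0017) and by 1.10 ± 0.27 in the hybrids (adjusted p = 0.0047). Acam, a calmodulin relative, rose in that interval by 0.95 in the hybrids, and CASK, a synaptic scaffold kinase, rose by 0.79 from larva to early pupa in the species. CG7646 and the calcineurin catalytic gene Pp2B-14D passed in none of these tests. None of these 5 genes was called from late pupa to adult in the mean of the species or in the hybrids, the interval in which the mean of Nca was lower in adults of both parents. Frq2, a frequenin and so a neuronal calcium sensor like Nca, was measured on all arrays of D. sechellia and D. simulans only and was singled out after its values were seen. Its mean differed by 1.44 and 0.69 between early and late pupae and by -1.04 and -0.54 between late pupae and adults, and none of these was called in a fit over the wider set of elements (limma, adjusted p = 0.086, 0.42, 0.25 and 0.65).

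In G protein and cyclic AMP signalling, onto which serotonin receptors act, both elements of Pka-R1, a regulatory subunit of protein kinase A, fell from larva to early pupa. The changes were -2.18 and -1.81 in the species and -2.01 and -1.07 in the hybrids, and both elements rose again from late pupa to adult in the species, by 0.84 and 1.18. The G protein alpha subunit cta fell from early to late pupa by 1.14 in the species and 1.42 in the hybrids (limma, adjusted p = 0.011 and 0.0019). The stimulatory subunit Galphas and loco, a regulator of G protein signalling, passed in none of these tests.

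The list of synaptic vesicles and release includes alphaSnap, which takes SNARE complexes apart, and unc-13, which primes vesicles for release. It also includes Syb, a vesicle SNARE protein that is a different gene from the neuron marker nSyb. From larva to early pupa alphaSnap, Syb and unc-13 rose in the mean of the species, by 1.03, 0.91 and 1.08. Syb then fell by 1.02 in the species and 0.91 in the hybrids, while unc-13 and the vesicle GTPase Rab3 rose from early to late pupa in the hybrids, by 1.28 and 1.30. Neither of these was called in the mean of the species, where unc-13 changed by 0.40 and Rab3 by 0.64. The difference between hybrids and species in this interval was not tested. The neuron marker nSyb was measured on all arrays of D. sechellia and D. simulans only, and was singled out after its values were seen. Unlike Syb, it was higher in late than in early pupae, by 0.66 and 0.60. Other partly measured genes of this list are not given here.

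**Figure D4:**
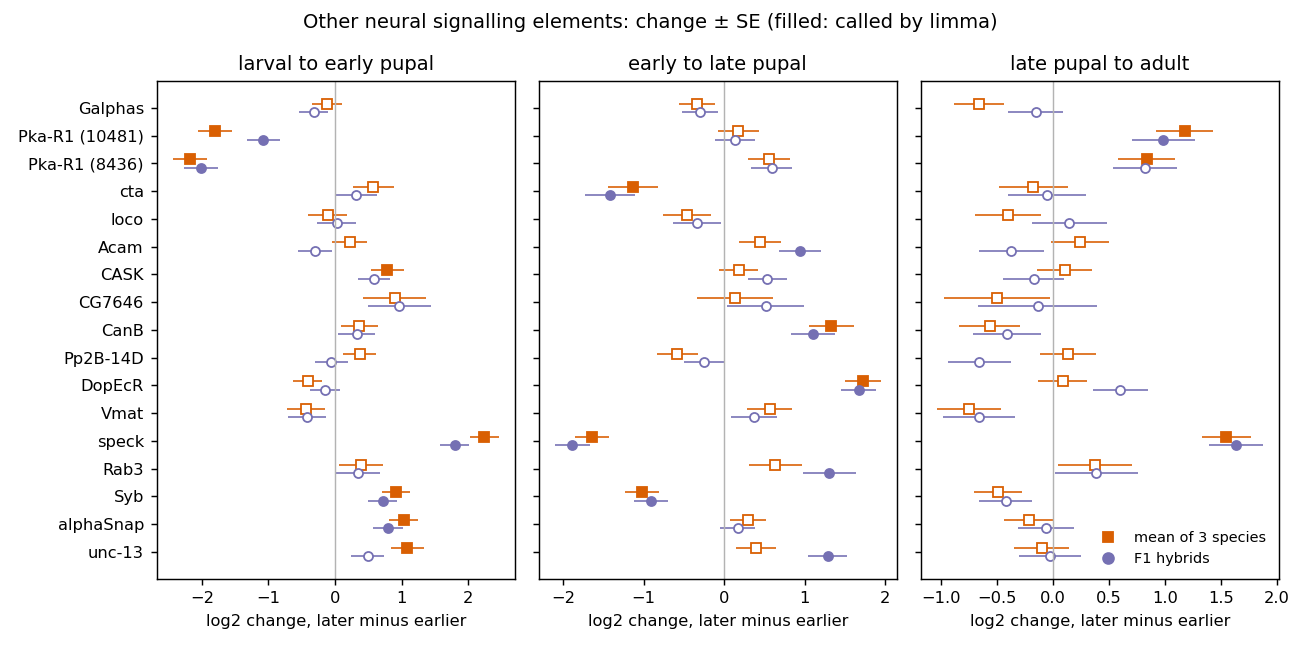
Change on the log2 scale (x axis, later minus earlier stage, with SE) of the 17 other neural signalling elements (y axis) in the mean of the 3 species (squares) and in the hybrids (circles), with filled symbols for limma calls. The 2 Pka-R1 elements are told apart by their element number. DopEcR and CanB rise from early to late pupa in both, by 1.10 to 1.72.

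Against both parents in the same direction, 0 of the 17 elements were called by limma at any stage. At an unadjusted p under 0.05 there were 0 in larvae, early pupae and late pupae (5.84%, 1.97% and 0.394% of all elements) and 1 in adults (6.63%). Over all elements 1 was called higher and 37 lower in adults (0.0394% and 1.46%), and at most 1 at the other stages. The list medians of adult hybrids minus D. sechellia and minus D. simulans were 0.15 and 0.15, where the medians of all elements were 0.02 and 0.05 and the values of Nca 1.46 and 1.61. Between pairs of species, over 3 pairs and 4 stages, 0 of the 204 limma tests of the list were called (background 0.256%). At an unadjusted p under 0.05 there were 25, or 12.3%, against 10.4% of the tests over all elements.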

How the data were processed

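RNA of 48 samples was compared with a common reference on 2-colour cDNA arrays. The authors labelled samples and reference with different dyes, always the same way round, discarded spots that were dim or close to background, required both spots of an element on each array of a given species or of the hybrid set, and corrected every array with a loess surface in spot position and intensity. The log2 ratios deposited by the authors were used as they are, and every column of the table was mapped to a sample. Spot intensities are not used here, so no filter on dim spots could be tried. Of the 27648 probes, 14966 have 1 gene symbol, 264 several and 12418 none listed.

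The 2 spots of an element were averaged. Near-identical arrays of a group (correlation of the duplicate-spot difference over 0.5) were averaged to 1 sample. For the levels of Nca and 5-HT1A the plan had the plain mean of 3 arrays as its base and the merged mean as the alternative; the order was exchanged, and the closing section gives the effect. "No overlap" means that all arrays of a group lie on 1 side of all arrays of the other, and the background is the share of the 2535 elements for which this holds in the direction stated. For the list, arrays of a pure species were averaged to 1 sample and each hybrid pool kept, which gives 23 samples in 16 groups, 7 residual degrees of freedom and, in limma 3.58.1 (R 4.3.3), 9.54 prior degrees of freedom. The spread thus comes from hybrid pools and is assumed for the species. The fit was also run on simulated data, with changes set in adult hybrids and the spread of hybrid pools used for every group. It therefore cannot check the spread assumed for the species. The authors' own tests over spots, SAM and t-tests, were not used. They take duplicate spots as replicates, and in the pure species also arrays of 1 pool. By the authors' comparison of variances, the hybrid arrays were at no stage more variable than every pure species. Symbols of the annotation and chromosome names come from the gene table of Release 6, whose coordinates are not printed because the build of the arrays is not given in the sources used here.

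Named genes are the 2 members, list elements called in a comparison, the 5 named genes most like each member over the group means, and members of their lists measured in all 4 groups. Frq2 and nSyb, each measured in 2 species, were added. The members, lists and tests were chosen with earlier results of these data known. Alternatives were other scalings, no merging, each spot alone, every array as a replicate with and without the replicate number as a block, 1 value per gene, a wider set of elements, no minimum fold change, and leaving out replicates.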

Additional observations from a re-analysis of the deposited data

Results flagged for a closer look

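Several genes moved in opposite directions in different groups with no overlap between the stages, and none of these differences was tested. A move without overlap in 1 group is common when taken alone. Within a single group and interval, the stages lay apart in a given direction for 15% to 40.3% of elements. The share of all elements with opposite moves is not given here. From larva to early pupa 5-HT1A was higher by 0.44 in D. sechellia and changed by -0.15 in D. simulans. From early to late pupa unc-13 was higher by 1.28 in the hybrids, by 1.21 in D. melanogaster and by 0.77 in D. sechellia, whereas it changed by -0.79 in D. simulans. From late pupa to adult unc-13 was higher by 0.87 in D. simulans, whereas it changed by -0.34 in D. melanogaster and by -0.82 in D. sechellia. Over the same interval Acam was higher by 0.91 in D. sechellia and changed by -0.26 in D. simulans, and cta was higher by 0.35 in D. melanogaster and changed by -1.14 in D. sechellia. In the pure species the arrays behind these values repeat 1 pool for each stage.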

How the results depend on the processing

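Of the 72 differences of Nca and 5-HT1A between groups or stages, 20 were past 1.5-fold, that is 0.58 in log2. None of these changed sign with either spot alone, with arrays centred or scaled, without merging or without replicate 1, 2 or 3. Only leaving out replicate 2 could have turned one, since the largest move in the other settings was 0.44. Without replicate 2, some of the 20 fell below 1.5-fold. In D. simulans Nca then had means of 1.03 in late pupae and 0.54 in adults. 5-HT1A had 0.36 in early and 0.75 in late pupae. How many of the 20 stayed past 1.5-fold is not given here. Smaller differences changed sign in up to 11 cases, and the largest move, 0.84, came from leaving out replicate 2. Without merging, 7 smaller differences changed sign and values moved by up to 0.28, the early to late pupal change of Nca in D. simulans from 0.08 to -0.06 and its late pupal to adult change from -1.33 to -1.05. The counts of list elements called stayed within 1.5 times under no merging, centring, scaling, 1 value per gene, the wider set of elements and no minimum fold change. Taking every array as a replicate gave, without and with the replicate number as a block, 5 and 5 calls from late pupa to adult in the species (3 in the report), 4 and 4 in the hybrids (2), 1 and 1 against both parents in larvae, in early pupae and in adults (0 each), and 56 and 57 between pairs of species (0); these arrays include technical repeats. Arrays of the same number share only a number: the median correlation of their deviations was 0.01 (-0.43 to 0.45 over 360 pairs). Leaving out replicates gave 2 to 5 calls from late pupa to adult in the species, 2 to 9 from larva to early pupa in the hybrids (9 without hybrid larval replicate 1, against 5), 5 to 9 from early to late pupa in the hybrids (5 without replicate 3, against 8), 0 to 3 from late pupa to adult in the hybrids (0 without replicate 3, against 2), and 0 to 4 between pairs of species. The cause of these moves was not tested. The filter on dim spots and the methods' t-test were not run.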

Other observations

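CG14015, the fourth gene in likeness to 5-HT1A, has the element next to that of 5-HT1A in the order of the array table (r = 0.82 over 16 groups). Over 700 pairs of adjacent elements the median r was 0.14, against 0.01 over all pairs of elements. The elements beside Nca, those of Rift and CG18473, had r = -0.20 and 0.24 with it. CG14015 was singled out after its values were seen, and the part of position on the array in these likenesses was not tested.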
